A study of Mus musculus with 72 samples.

Results

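The cachexia effect of C26 tumours on the mouse liver was compared with that of 8025 tumours. The quantity compared is a difference of effects in whole liver nuclei: the log2 change of cachectic C26 animals over their controls minus the log2 change of cachectic 8025 animals over their controls. Of 390 immune genes tested, 87 were lower in C26 by this measure and 3 were higher, while over all genes tested 4.6% were lower and 1.97% higher. The immune lists were chosen with earlier results of these data known. The filter on low counts can also pass a gene through cachectic 8025 animals alone, so these counts are descriptions. Genes of monocytes, macrophages and neutrophils such as Itgam, Ccr2, Csf1r and Csf3r were among the 87, and most of the 87 rose in 8025 cachexia. The comparison takes the 16 whole liver libraries of the 4 groups concerned, of 72 libraries in the series, with 4 animals in each group, and 13738 genes tested of 20105 in the count table.

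The groups, in the labels' terms, were cachectic C26 animals (C26 CX), saline-injected controls of that cohort (C26 PBS), cachectic 8025 animals (8025 CX) and saline-injected controls of that cohort (8025 PBS). C26 is a colon carcinoma line carried here by BALB/c mice, and the 8025 cells were carried by C57BL/6N mice. All animals of the 4 groups had the CAG-Sun1/sfGFP and Albumin-Cre alleles, so that a tagged nuclear envelope protein was made in cells in which the albumin promoter had been active, in controls as well as in tumour bearers. Livers were collected at zeitgeber time 9 h, and the tumour animals had lost over 10% of body weight. Nuclei of the whole liver and bead-bound, mostly hepatocyte nuclei were prepared from the same animals, and total RNA without poly(A) selection was sequenced as 50 base paired reads. Each tumour had its own control animals, so the effects share no library, but mouse strain, tumour line and cohort change together and cannot be told apart. Nothing in the labels says more of how far the animals within a group are independent than that they are separate animals.

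As background, the liver holds resident macrophages, the Kupffer cells, which line the sinusoids and take up particles, bacteria and aged red cells from portal blood. Inflammatory signals add monocytes and neutrophils from the marrow, which carry the chemokine receptor Ccr2, the integrin chain Itgam or the growth factor receptor Csf3r and are shaped by the transcription factor Spi1 (PU.1). Cachexia is a wasting of muscle and fat that tumours can cause together with systemic inflammation, to which hepatocytes respond by making acute phase proteins.

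The 16 libraries held between 12239096 and 30324405 counts, with a median of 16999185, and TMM factors between 0.905 and 1.14. Replicates of a group differed by more than counting noise in each of 24 pairs, with a chi-square per degree of freedom between 22.7 and 183. The share of counts on 5 rRNA-like genes ran from 0.944 to 7.33% and was lowest in replicate 1 of both control groups. Without both of these libraries 66 of the 90 immune genes called in the difference of effects were called again. Values below are CPM, the counts of a gene per fixed total of its library after TMM scaling, which are not adjusted for gene length, so levels are compared between libraries and not between genes. The RNA is that of nuclei mixed from all cells of the liver, so that a change in the number of cells of a type and a change in RNA per cell cannot be told apart.

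In the difference of effects, 632 genes were lower in C26, 4.6% of those tested, and 270 were higher in C26, 1.97% (edgeR quasi-likelihood test, Benjamini-Hochberg adjusted p under 0.05). Of the 632 lower genes, 440 rose in 8025 cachexia and were not called in C26 cachexia. A further 68 rose in both models but less in C26, and 68 fell in C26 alone. Here and below, alone means that the effect was called in that model and not in the other. In 42 genes the effects had opposite called signs, with a fall in C26 and a rise in 8025. The 270 higher genes split into 133 that fell in 8025 alone, 97 that rose in C26 alone and smaller classes, among them 8 that rose in C26 and fell in 8025.

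The models' own effects were larger in number than their difference. C26 cachexia raised 1627 genes, 11.8% of those tested, and lowered 1412, or 10.3%. In 8025 cachexia 2569 genes rose, 18.7%, and 2458 fell, 17.9%. Across the 13738 genes the log2 effects of the models had a Pearson correlation of 0.605, and across the 390 immune genes 0.729. Both are descriptions over genes that are not independent. Without 8025 CX replicate 3, 386 genes were lower and 152 higher in the difference.

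Of 454 genes on 17 immune lists, 447 were in the table and 390 passed the filter on low counts. The filter keeps a gene that is high in a single group, so genes with few counts outside 8025 CX libraries could pass through that group. Counts of rises and list medians are descriptions for that reason. Among these 390, 87 were lower and 3 higher in C26, and their median log2 difference was −0.66, against 0.017 over all genes tested. The 3 higher genes were Clec9a, Nlrc5 and Tgtp1. Of the 87 lower genes, 61 rose in 8025 alone, 21 rose in both models, 3 (Oasl2, Oas1a and Tgfb1) fell in C26 and rose in 8025 (the 8025 rise of Oas1a was lost without any of 4 single libraries, adjusted p up to 0.11), and 2 (Fscn1 and Ifi27l2a) fell in C26 alone. In 70 of the 87 the lowest 8025 CX library lay above each of the other 12 libraries, and in 23 all C26 CX libraries lay above all C26 PBS libraries; as the call used these values, this is a description. Of the 87, 57 were called in each of the 16 fits that left out 1 library.

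Taken alone, the effects on the 390 genes were 205 that rose and 27 that fell in 8025 cachexia, with a median log2 change of 0.78. In C26 cachexia 90 rose and 34 fell, with a median of 0.15. The summed CPM of the immune lists was 11440 to 13790 in C26 CX libraries, 8597 to 10600 in C26 PBS libraries, 13540 to 15050 in 8025 CX libraries and 8965 to 10840 in 8025 PBS libraries. The summed level was thus higher in cachectic than in control libraries of either cohort, without overlap. It is weighted to abundant lists and is not a measure of immune cells. Group means of the cytokine list were 5682 (C26 CX), 3189 (C26 PBS), 5041 (8025 CX) and 3308 CPM (8025 PBS). Those of the leukocyte adhesion and signalling list were 1338, 1329, 2567 and 1437 CPM in the same order.

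**Figure D1:**
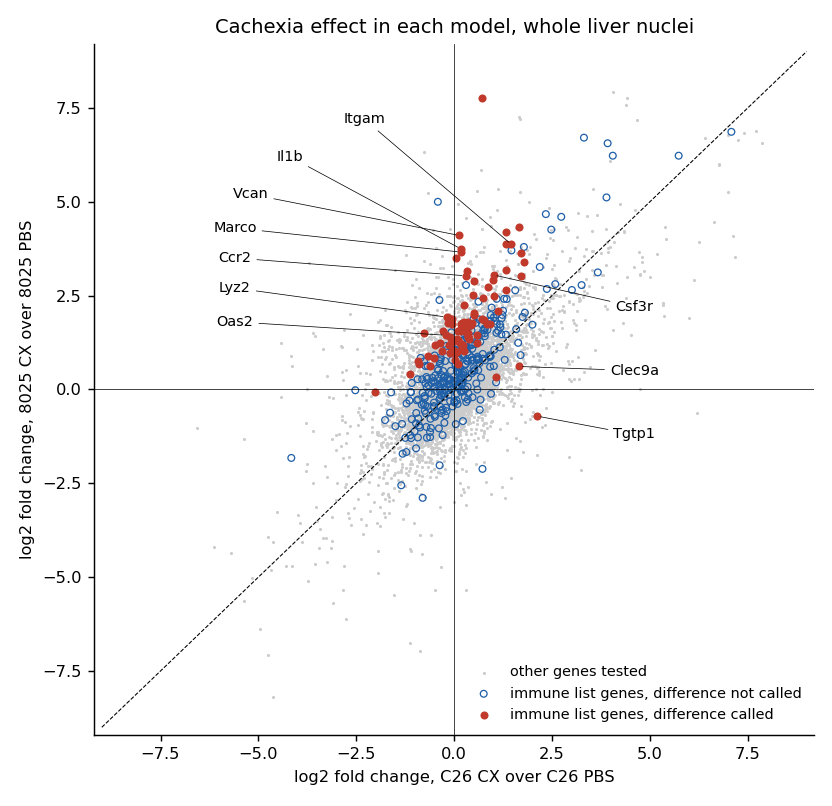
Log2 fold change of each gene in C26 cachexia (x axis, C26 CX over C26 PBS) against that in 8025 cachexia (y axis, 8025 CX over 8025 PBS); grey points are other genes tested, red points the 90 immune list genes with a called difference and blue rings the immune list genes without one. On the dashed line the effects are equal, and 87 of the red points lie above it.

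**Figure D2:**
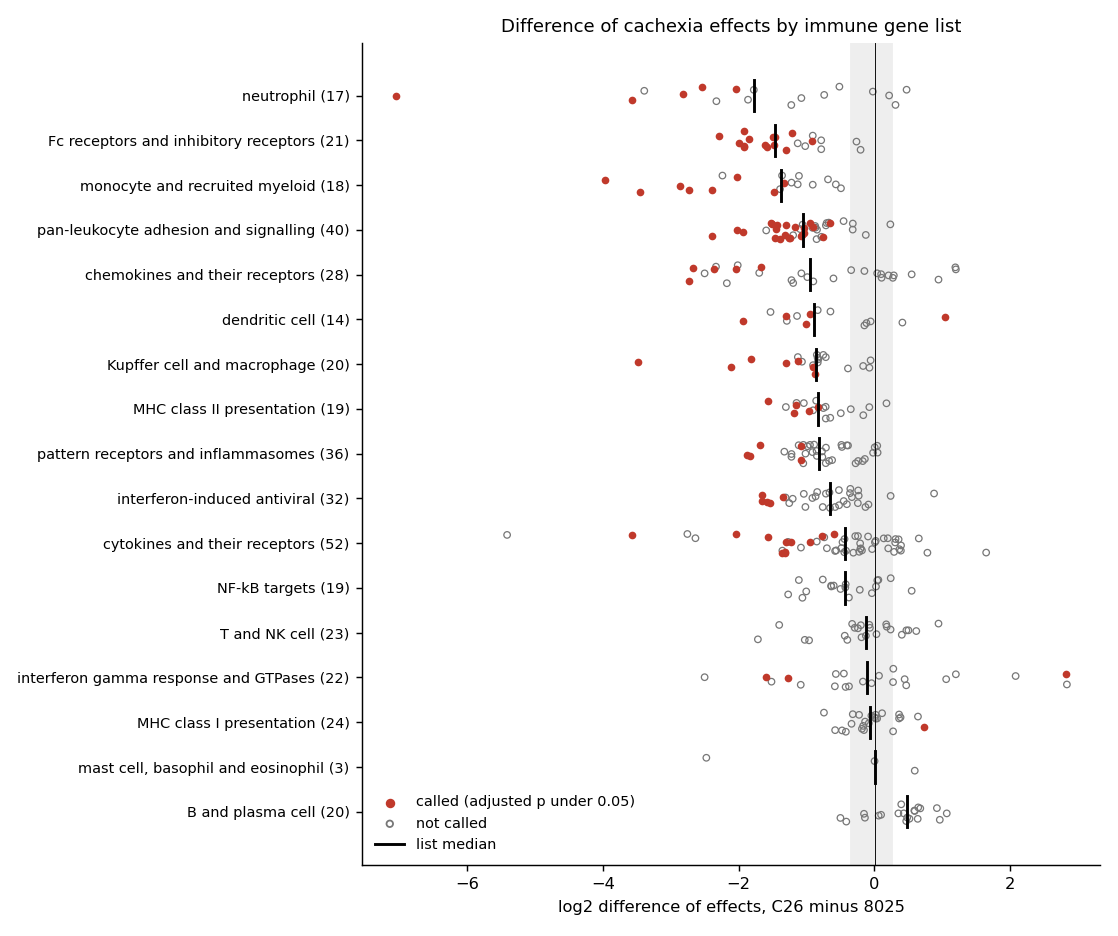
Log2 difference of effects (x axis, C26 minus 8025) for the tested genes of each immune list (rows, number tested in brackets); red points passed the test, rings did not, bars are list medians and the grey band holds the middle of all genes tested between their quartiles. The neutrophil list has the lowest median, −1.78, and the B and plasma cell list the highest, 0.48.

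Monocyte and recruited myeloid genes were lower in C26 in 8 of the 18 that passed the filter, with none higher and a median log2 difference of −1.38, or −1.44 with a gene at 0 counts in a group set at the floor of 3 counts. In 8025 cachexia 17 of the 18 rose, against 7 of the 18 in C26 cachexia, beside 18.7% and 11.8% of all genes. Of all genes tested 4.6% were lower in the difference. Chil3 of this list had most of its counts in 1 group: 24 over C26 CX, 0 over C26 PBS, 431 over 8025 CX and 3 over 8025 PBS. The 8 lower genes were Vcan, Itgam, Thbs1, Ccr2, F13a1, Itgax, Lgals3 and Treml4, and leaving out any single library left between 8 and 10. Of the 8, Itgam and F13a1 rose in both models, as described next.

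Vcan encodes versican, a matrix proteoglycan made by classical monocytes. It had 1.72, 0.341, 1.30 and 1.01 CPM in C26 CX libraries, 0.996, 0.96, 0.731 and 1.23 CPM in C26 PBS libraries, 24.2, 23.1, 33.4 and 16.9 CPM in 8025 CX libraries and 1.63, 0.702, 0.996 and 2.26 CPM in 8025 PBS libraries. All 8025 CX libraries were high, while the other groups overlapped. The difference was −3.97 ± 0.53 (log2, SE; adjusted p = 3.1e-05), made of an 8025 rise of 4.10 and a C26 change of 0.13 that was not called (adjusted p = 0.86).

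Itgam, the CD11b integrin chain of monocytes and neutrophils, was raised in both models. Its level was 5.56, 4.51, 5.03 and 3.19 CPM in C26 CX libraries and 1.91, 1.44, 1.31 and 1.995 CPM in C26 PBS libraries. In the other cohort it was 19.4, 26.5, 29.3 and 23.2 CPM in 8025 CX libraries and 1.63, 1.56, 1.85 and 1.71 CPM in 8025 PBS libraries. The cachectic libraries of each cohort lay above their controls, and the 8025 CX libraries above all others. The log2 rise was 1.46 in C26 and 3.86 in 8025, and their difference was −2.40 ± 0.33 (adjusted p = 5.9e-05).

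Ccr2 is the receptor by which monocytes leave the marrow towards Ccl2. It had 4.84, 2.92, 3.78 and 1.48 CPM in C26 CX libraries, 2.86, 2.29, 2.44 and 3.17 CPM in C26 PBS libraries, 7.17, 12.2, 15.7 and 7.76 CPM in 8025 CX libraries and 1.44, 0.78, 1.49 and 1.52 CPM in 8025 PBS libraries. The C26 groups overlapped and the 8025 groups did not. The difference was −2.74 ± 0.42 (adjusted p = 0.00017), with an 8025 rise of 3.03 and a C26 change of 0.29 (adjusted p = 0.52).

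F13a1, the coagulation factor subunit that monocytes and macrophages carry, rose in both models, by 1.33 in C26 and 4.19 in 8025 on the log2 scale, and its difference was −2.86 ± 0.47 (adjusted p = 0.00038). Thbs1, a matrix glycoprotein, had a difference of −3.46 ± 0.52 (adjusted p = 0.00014) and rose in 8025 alone. Itgax, the CD11c chain of dendritic cells and some macrophages, differed by −2.03 ± 0.41 (adjusted p = 0.0025). In the last 2 genes the C26 changes were 0.06 and −0.14, neither called.

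The neutrophil list had 5 of 17 genes lower in C26, beside 4.6% of all genes, and none higher. Its median log2 difference was −1.78, or −1.86 with genes at 0 counts in a group at the floor. Of the 17 genes, 15 rose in 8025 cachexia and 8 in C26 cachexia, beside 18.7% and 11.8% of all genes. Some had few counts outside the 8025 CX group and may have passed the filter through it. Mpo had 4 counts over C26 CX, 0 over C26 PBS, 49 over 8025 CX and 0 over 8025 PBS libraries. The share that rose in 8025 and the list median are therefore partly set by the filter. The 5 were Csf3r, Il1b, Mmp9, Trem1 and Clec4d, and 3 genes of the list were called without C26 PBS replicate 1. Summed over the list, 24.8 to 31.0 CPM were found in C26 CX libraries, 10.7 to 14.1 in C26 PBS libraries, 82.3 to 109 in 8025 CX libraries and 11.8 to 15.8 in 8025 PBS libraries. Clec4d lost its call without any of 10 single libraries (adjusted p up to 0.21), and Mmp9 without C26 PBS replicate 1 (0.051) and without both control replicates 1 (0.077). Of the list, Ly6g, Elane, Ngp, Camp, Ltf, Retnlg and Ctsg did not pass the filter. Prtn3 and Mmp8, which encode a granule protease and a collagenase of neutrophils, rose in both models and their differences were not called (adjusted p = 0.94 and 0.75). Prtn3 had 199 counts over the C26 CX group, 1 over the C26 PBS group, 315 over the 8025 CX group and 2 over the 8025 PBS group.

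Csf3r, the receptor for granulocyte colony-stimulating factor, had 10.5, 10.16, 8.34 and 8.08 CPM in C26 CX libraries against 4.36, 4.48, 5.45 and 4.22 CPM in C26 PBS libraries. It had 40.05, 53.9, 36.1 and 38.8 CPM in 8025 CX libraries against 3.14, 4.91, 5.76 and 6.52 CPM in 8025 PBS libraries. Every cachectic library was above every control library of its cohort. The log2 rise was 1.0 in C26 and 3.05 in 8025, a difference of −2.04 ± 0.29 (adjusted p = 7e-05).

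Il1b, the inflammatory cytokine interleukin-1 beta, had 2.50, 2.08, 1.95 and 1.55 CPM in C26 CX libraries, 2.45, 1.65, 1.27 and 1.82 CPM in C26 PBS libraries, 8.85, 10.1, 11.1 and 9.12 CPM in 8025 CX libraries and 0.523, 1.25, 0.712 and 0.488 CPM in 8025 PBS libraries. The C26 groups overlapped, and both lay between the 8025 groups. The difference was −3.57 ± 0.57 (adjusted p = 0.00028). Trem1, which amplifies Toll-like receptor signals in myeloid cells, had 8 counts over the C26 CX group, 5 over the C26 PBS group, 116 over the 8025 CX group and 0 over the 8025 PBS group. Its 8025 rise was at least 27.7-fold against the floor of 3 counts over the group, and its difference was called (adjusted p = 0.023) but not without C26 PBS replicate 2 or replicate 4 (adjusted p = 0.12 and 0.071).

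S100a8, a calcium-binding protein abundant in neutrophils, rose in both models and its difference was not called (adjusted p = 0.52); the C26 rise was lost without C26 CX replicate 1 (0.057) or C26 PBS replicate 1 (0.086). The group sums were 18 counts in C26 CX, 3 in C26 PBS, 63 in 8025 CX and 2 in 8025 PBS libraries. At this depth a difference in this gene could not be told from the spread between animals.

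Kupffer cell and macrophage genes lay below 0 in the difference in all 20 that were tested, and 7 of them were called lower, with a median of −0.86. In 8025 cachexia 17 of 20 rose, and in C26 cachexia 7 of 20, beside 18.7% and 11.8% of all genes. Of all genes tested 4.6% were called lower in the difference. The 7 called were Lyz2, Csf1r, Axl, Marco, Clec4f, Folr2 and Timd4. The count depended on single libraries: it was 3 without 8025 CX replicate 3, C26 CX replicate 2 or C26 PBS replicate 4, 4 without 8025 CX replicate 2 or C26 CX replicate 4, 4 without both control replicates 1, and at most 10. The 7 rises in C26 were 3 without C26 CX replicate 1. Lyz2, Csf1r and Axl were called in each fit that left out 1 library, while Folr2 and Timd4 each lost their call without any of 11 (adjusted p up to 0.1 and 0.11). The summed CPM of the list was 915 to 1223 in C26 CX libraries, 703 to 882 in C26 PBS libraries, 1181 to 1700 in 8025 CX libraries and 641 to 824 in 8025 PBS libraries.

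Csf1r is the receptor for the growth factor on which macrophages depend. It had 50.4, 34.7, 37.0 and 34.4 CPM in C26 CX libraries, 26.4, 30.4, 25.6 and 31.9 CPM in C26 PBS libraries, 75.1, 94.8, 91.7 and 95.5 CPM in 8025 CX libraries and 18.4, 28.5, 28.2 and 30.1 CPM in 8025 PBS libraries. Cachectic and control libraries did not overlap in either cohort. The log2 rise was 0.45 in C26 (adjusted p = 0.041) and 1.76 in 8025, a difference of −1.31 ± 0.23 (adjusted p = 0.00076). The C26 rise of Csf1r was not called without any of 5 single libraries (adjusted p = 0.055 to 0.17) or without both control replicates 1 (0.076).

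Lyz2, the macrophage lysozyme, was 7.64, 4.55, 5.26 and 3.497 CPM in C26 CX libraries, 6.06, 4.53, 5.31 and 8.21 CPM in C26 PBS libraries, 12.3, 10.99, 13.7 and 6.56 CPM in 8025 CX libraries and 2.48, 2.65, 2.56 and 3.78 CPM in 8025 PBS libraries. The C26 groups overlapped. Here the controls differed too, since each C26 PBS library was above each 8025 PBS library. The difference was −2.12 ± 0.35 (adjusted p = 0.00042), with an 8025 rise of 1.93 and a C26 change of −0.19 (adjusted p = 0.62).

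Clec4f, a lectin made in the mouse by Kupffer cells, rose in both models, by 0.58 in C26 and 1.45 in 8025. It had 74.3, 49.2, 51.3 and 51.0 CPM in C26 CX libraries, 33.8, 41.1, 31.9 and 44.5 CPM in C26 PBS libraries, 76.0, 97.1, 90.6 and 89.6 CPM in 8025 CX libraries and 23.1, 36.03, 33.2 and 36.9 CPM in 8025 PBS libraries. The difference was −0.87 ± 0.25 (adjusted p = 0.026), and the call was lost without any of 7 single libraries (adjusted p up to 0.068) or without both control replicates 1 (0.052). The C26 rise of Clec4f was lost without C26 CX replicate 1 (0.083), C26 PBS replicate 1 (0.053) or C26 PBS replicate 3 (0.059). Adgre1, the macrophage marker F4/80, rose in 8025 alone, by 1.13, and its difference of −0.84 ± 0.28 was not called (adjusted p = 0.072), although it was without C26 CX replicate 1 (−1.11, adjusted p = 0.0074), 8025 CX replicate 1 (−0.95, adjusted p = 0.037) or 8025 PBS replicate 4 (−0.94, adjusted p = 0.05). Marco, a scavenger receptor of macrophages, had the lowest difference of the list, −3.48 ± 0.96 (adjusted p = 0.023), and lost its call without 8025 CX replicate 3 (−2.80, adjusted p = 0.074), C26 CX replicate 2 (0.056), C26 PBS replicate 4 (0.079) or both control replicates 1 (0.079).

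**Figure D3:**
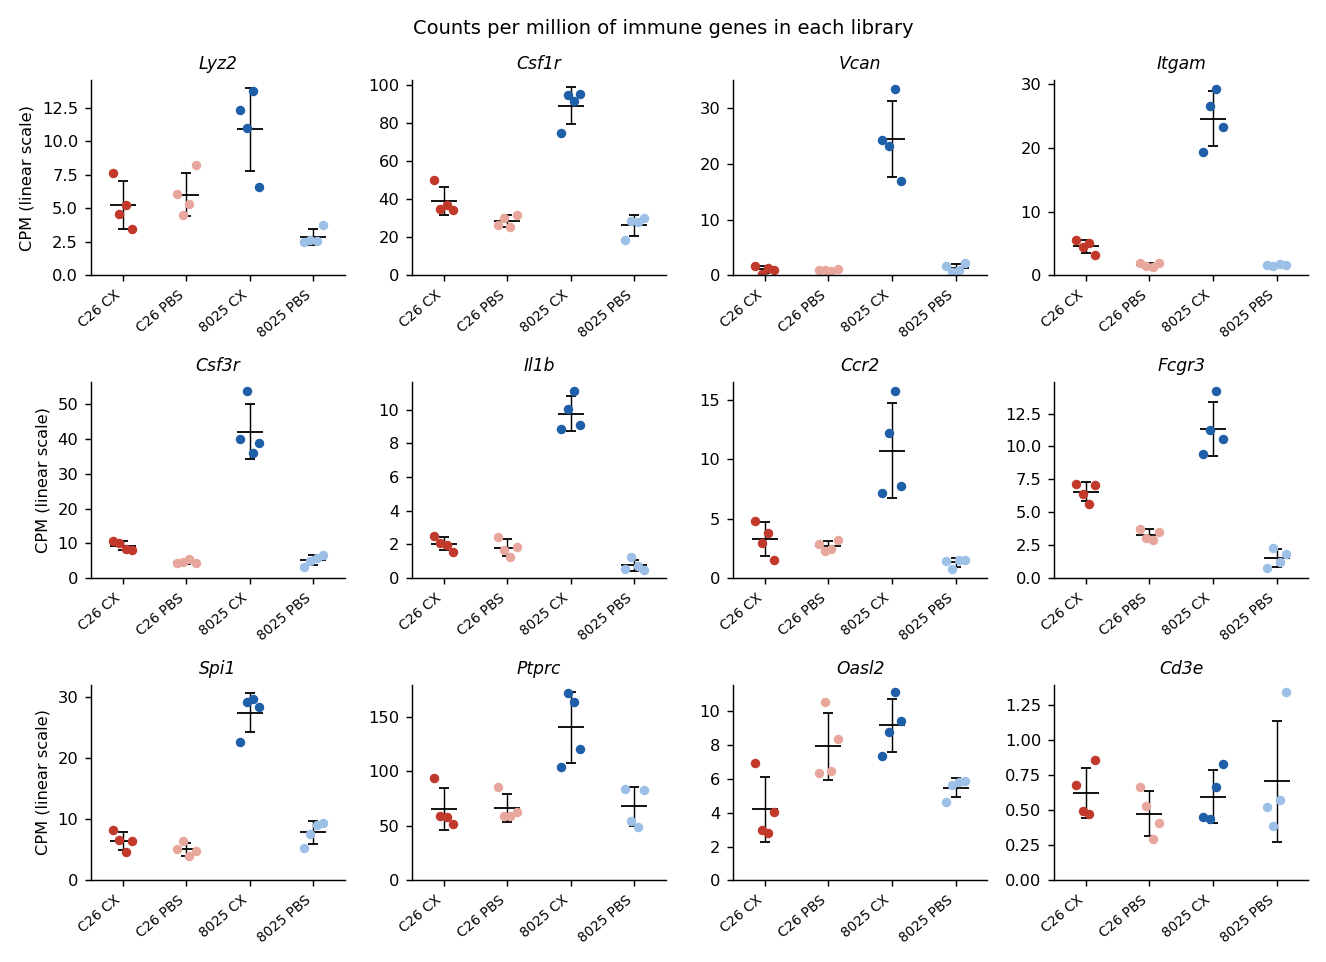
CPM (y axes, linear from 0) of 12 immune genes in each of the 16 libraries, with groups in the order C26 CX, C26 PBS, 8025 CX and 8025 PBS; points are animals and bars the mean ± SD of 4. Itgam reaches 19.4 to 29.3 CPM in 8025 CX libraries and at most 5.56 CPM elsewhere, whereas the groups of Cd3e overlap.

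Fc receptors and inhibitory receptors set how strongly myeloid cells react to antibody and to self ligands. Of the 21 tested, 14 were lower in C26, 66.7% of the list beside 4.6% of all genes, with none higher. All 21 lay below 0, with a median of −1.46. All 21 rose in 8025 cachexia and 8 rose in C26 cachexia, beside 18.7% and 11.8% of all genes. Between 13 and 16 were lower when any single library was left out. The summed CPM was 240 to 347 in C26 CX libraries, 219 to 241 in C26 PBS libraries, 419 to 575 in 8025 CX libraries and 160 to 220 in 8025 PBS libraries.

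Fcgr3, the activating receptor for IgG on myeloid cells, had 7.18, 6.41, 5.62 and 7.07 CPM in C26 CX libraries and 3.73, 3.04, 2.87 and 3.52 CPM in C26 PBS libraries. In the other cohort the values were 9.41, 11.2, 14.2 and 10.6 CPM in 8025 CX libraries and 0.784, 2.26, 1.21 and 1.83 CPM in 8025 PBS libraries. The cachectic libraries were above their controls in both cohorts, while the 8025 controls were below the C26 controls. The log2 rise was 0.99 in C26 and 2.91 in 8025, a difference of −1.91 ± 0.34 (adjusted p = 0.00089).

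Cd300lf, an inhibitory receptor that binds lipids of dying cells, had 8.27, 7.70, 6.62 and 10.9 CPM in C26 CX libraries and 2.45, 2.45, 2.04 and 2.82 CPM in C26 PBS libraries. The 8025 values were 30.1, 40.1, 42.0 and 40.8 CPM in 8025 CX libraries and 2.88, 3.12, 4.27 and 4.33 CPM in 8025 PBS libraries. No group of cachectic libraries overlapped its controls. The difference was −1.61 ± 0.29 (adjusted p = 0.001), between a rise of 1.77 in C26 and one of 3.39 in 8025.

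Others of this list rose in 8025 alone. Sirpa, which reads the self signal CD47, differed by −1.49 ± 0.29 (adjusted p = 0.0018) and Siglec1, a sialic acid receptor of macrophages, by −1.58 ± 0.32 (adjusted p = 0.0025). Tyrobp, the adaptor DAP12, differed by −2.0 ± 0.46 (adjusted p = 0.0071) and the signalling chain Fcer1g by −1.30 ± 0.28 (adjusted p = 0.0038). The C26 changes of these 4 genes lay between −0.10 and 0.24 and none was called. Lilrb4a differed by −1.92 ± 0.35 (adjusted p = 0.0011), with the reservation that its near-identical neighbour Lilr4b may share reads with it.

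Of the immune lists, leukocyte adhesion and signalling gave the highest count of calls, with 22 of 40 lower beside 4.6% of all genes. None was higher and the median was −1.05. In 8025 cachexia 36 of the 40 rose and 1 fell, beside 18.7% and 17.9% of all genes. In C26 cachexia 7 rose and 1 fell, beside 11.8% and 10.3%. Leaving out single libraries left between 16 and 27 lower. Integrin chains were among them: besides Itgam, Itgb2 differed by −1.43 ± 0.27 (adjusted p = 0.0013) and Itgal by −1.27 ± 0.26 (adjusted p = 0.003).

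Spi1, the transcription factor PU.1 of myeloid and B cells, had 8.22, 6.60, 4.73 and 6.37 CPM in C26 CX libraries, 5.14, 6.50, 3.94 and 4.75 CPM in C26 PBS libraries, 22.7, 29.1, 29.7 and 28.4 CPM in 8025 CX libraries and 5.29, 7.64, 9.11 and 9.45 CPM in 8025 PBS libraries. Only the 8025 CX libraries stood apart. The difference was −1.45 ± 0.28 (adjusted p = 0.0016), with a C26 change of 0.35 that was not called (adjusted p = 0.22). Runx1, a transcription factor of blood cell development, had 88.3, 68.8, 49.02 and 56.7 CPM in C26 CX libraries, 75.5, 57.4, 45.9 and 40.5 CPM in C26 PBS libraries, 214, 282, 275 and 215 CPM in 8025 CX libraries and 55.7, 77.8, 65.8 and 87.0 CPM in 8025 PBS libraries. Its difference was −1.52 ± 0.25 (adjusted p = 0.0003).

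Ptprc, the pan-leukocyte surface phosphatase CD45, had 94.0, 59.1, 58.0 and 51.4 CPM in C26 CX libraries, 85.6, 59.0, 59.0 and 63.0 CPM in C26 PBS libraries, 104, 172, 164 and 121 CPM in 8025 CX libraries and 84.2, 54.8, 49.3 and 82.8 CPM in 8025 PBS libraries. The C26 groups overlapped. Its difference of −1.07 ± 0.29 was called (adjusted p = 0.02), but not without 8025 CX replicate 2 (adjusted p = 0.05) or replicate 3 (adjusted p = 0.054).

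**Figure D4:**
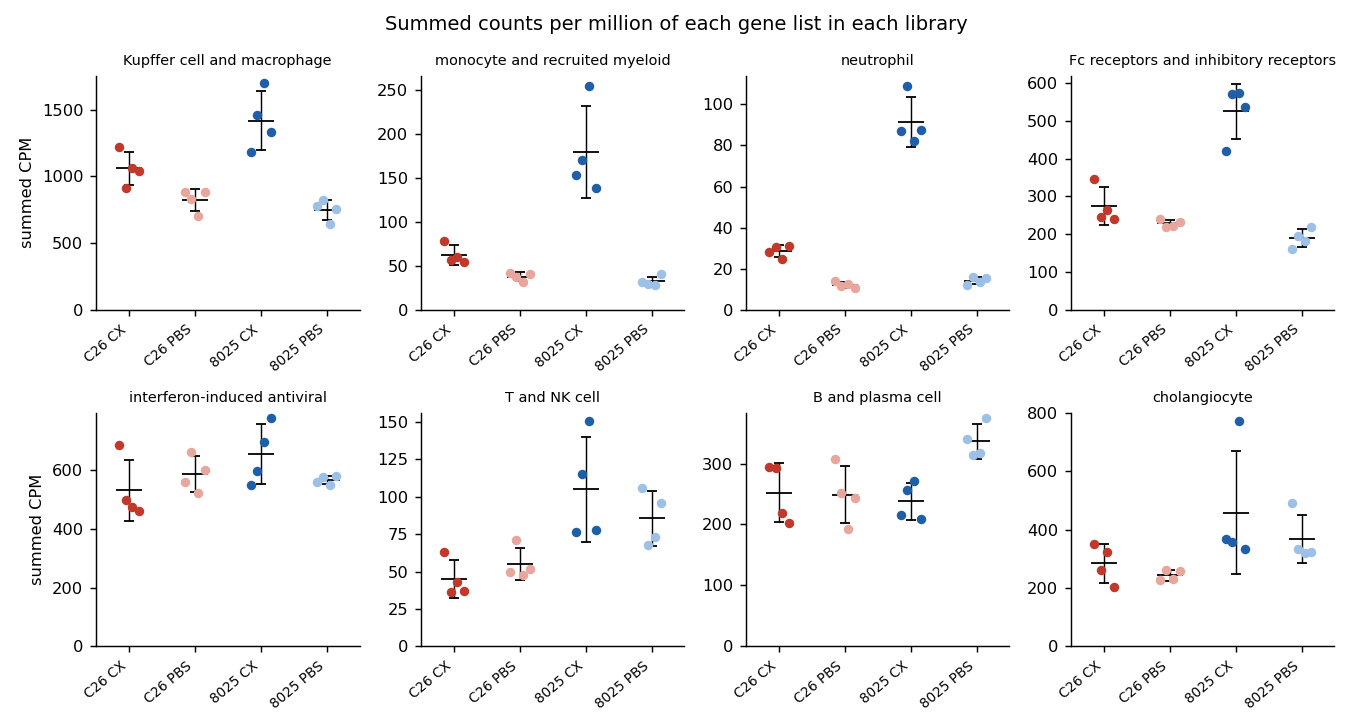
Summed CPM (y axes, from 0) of 8 gene lists in each of the 16 libraries, in the group order C26 CX, C26 PBS, 8025 CX and 8025 PBS; points are animals and bars the mean ± SD of 4. The neutrophil sum is 82.3 to 109 in 8025 CX libraries and 24.8 to 31.0 in C26 CX libraries, whereas the groups of the interferon-induced list overlap.

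The promoters of 5 immune genes with a called difference are shown because their windows hold matches to motifs of factors that act in these cells or responses. The windows come from RefSeq on GRCm38.p6 (mm10) and run from 250 bases before to 50 bases after the start of the gene, read on the strand of the gene from 5′ to 3′. Capitals mark the matches. The windows are Ctss at chr3:95526536-95526835 on the plus strand, Cd300lf at chr11:115133943-115134242 on the minus strand, Fcgr3 at chr1:171059354-171059653 on the minus strand, Csf3r at chr4:126024409-126024708 on the plus strand and Tgtp1 at chr11:48992197-48992496 on the minus strand.
Ctss: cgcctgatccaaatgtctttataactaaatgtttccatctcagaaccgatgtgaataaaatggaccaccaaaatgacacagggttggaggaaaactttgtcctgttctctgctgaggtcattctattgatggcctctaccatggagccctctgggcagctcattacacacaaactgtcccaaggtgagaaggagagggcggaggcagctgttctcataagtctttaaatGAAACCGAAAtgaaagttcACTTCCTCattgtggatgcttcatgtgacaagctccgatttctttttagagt
Cd300lf: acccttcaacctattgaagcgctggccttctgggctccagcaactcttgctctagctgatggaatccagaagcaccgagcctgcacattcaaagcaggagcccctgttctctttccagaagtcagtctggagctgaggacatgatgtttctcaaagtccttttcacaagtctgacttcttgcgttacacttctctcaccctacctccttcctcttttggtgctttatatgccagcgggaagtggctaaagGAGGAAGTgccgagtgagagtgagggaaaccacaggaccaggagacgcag
Fcgr3: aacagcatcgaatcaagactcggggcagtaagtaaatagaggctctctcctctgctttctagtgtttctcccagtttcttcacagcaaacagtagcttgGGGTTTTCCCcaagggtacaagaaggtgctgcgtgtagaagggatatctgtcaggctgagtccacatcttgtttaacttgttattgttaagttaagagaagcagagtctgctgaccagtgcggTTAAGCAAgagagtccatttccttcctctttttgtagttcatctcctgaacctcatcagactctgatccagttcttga
Csf3r: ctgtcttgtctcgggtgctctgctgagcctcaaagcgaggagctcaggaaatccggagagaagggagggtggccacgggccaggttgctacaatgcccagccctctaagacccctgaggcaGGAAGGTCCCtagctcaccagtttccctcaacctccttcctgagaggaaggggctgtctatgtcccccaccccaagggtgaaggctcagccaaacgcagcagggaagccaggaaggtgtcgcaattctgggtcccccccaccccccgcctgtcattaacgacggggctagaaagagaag
Tgtp1: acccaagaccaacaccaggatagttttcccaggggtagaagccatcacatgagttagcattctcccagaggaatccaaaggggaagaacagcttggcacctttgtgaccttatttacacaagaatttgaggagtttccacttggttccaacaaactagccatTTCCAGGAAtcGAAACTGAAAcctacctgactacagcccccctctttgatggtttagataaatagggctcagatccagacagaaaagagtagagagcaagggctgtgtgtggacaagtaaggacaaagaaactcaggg

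In Ctss the capitals are an ISRE-like match from 21 to 12 bases before the start and a PU.1-like match, on the opposite strand, across it. Cd300lf holds a PU.1-like match that begins at the start. Fcgr3 holds a kB-like match, its first, and a C/EBP-like match nearer the start, both on the opposite strand, and Csf3r a kB-like match on the opposite strand. In Tgtp1, which was higher in C26, a GAS-like match that reads as such on both strands stands before an ISRE-like match. No match to another motif overlapped these.

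The motifs searched, on both strands, were ISRE-like (GAAA, any 2 bases, GAAA), GAS-like TTCNNNGAA, kB-like (GGGA, any 4 bases, CC), PU.1-like GAGGAAGT and C/EBP-like TTGCNNAA. Of the 632 genes lower in C26, 465 had a window on their chromosome, as had 199 of the 270 higher genes and 10513 of the 13738 tested. The PU.1-like letters were in 6.88% of windows of lower genes and 1.51% of windows of higher genes, against 3.09% of windows of all genes tested. Of the 65 windows of immune genes lower in C26, 7 held them, 10.8%, against 7.53% of the windows of immune genes tested. The kB-like letters were in 27.5% of windows of lower genes and 24.6% of windows of higher genes, against 26.2% of all. ISRE-like letters were in 4.95% of windows of lower genes and 2.51% of windows of higher genes, against 3.17%. GAS-like letters were in 4.73% of windows of lower genes and 5.53% of windows of higher genes, against 7.23%. C/EBP-like letters were in 10.5% of windows of lower genes and 7.54% of windows of higher genes, against 8.78%. Among immune genes, the ISRE-like share was 6.15% of the lower genes' windows against 13.7% of those tested, and the GAS-like share 6.15% against 14%, the opposite order to that of the PU.1-like letters. The kB-like share of the immune windows was 26.2% against 30.8%, and the C/EBP-like share 9.23% against 11.3%. These are descriptions of letters in a window and not of binding.

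Chemokines and their receptors had 5 of 28 tested genes lower in C26, Ccr2 and Ccl6 among them, beside 4.6% of all genes. None was higher and the median was −0.94. The count was 3 without 8025 CX replicate 3, without 8025 PBS replicate 1 or without both control replicates 1. Ccl6, a chemokine of myeloid cells in the mouse, rose in both models, by 1.65 in C26 and 4.32 in 8025 (difference −2.67 ± 0.56, adjusted p = 0.0036). Without C26 PBS replicate 1 the C26 rise of Ccl6 was 2.31 and the difference −2.0 (adjusted p = 0.023). Ccl2, Ccl3, Ccl4, Ccl7 and Cxcl2 did not pass the filter.

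Cytokines and their receptors had 11 of 52 genes lower in C26, beside 4.6% of all genes, and none higher, with a median of −0.43. The lower genes were receptors and 2 secreted factors. Single libraries left out, 9 to 13 were lower; Ifngr2 lost its call without any of 7 (adjusted p up to 0.12), Csf2ra without C26 CX or C26 PBS replicate 3 (0.056 and 0.067) and Ifngr1 without 8025 CX replicate 3 (0.054). The secreted factors were Il1b, above, and Tgfb1, which fell in C26 by 0.61 (adjusted p = 0.0082) and rose in 8025 by 0.62 (adjusted p = 0.0035). Tgfb1 had 7.12, 6.79, 4.97 and 7.07 CPM in C26 CX libraries, 8.59, 10.8, 10.6 and 9.68 CPM in C26 PBS libraries, 16.02, 18.7, 17.7 and 18.02 CPM in 8025 CX libraries and 8.49, 13.8, 12.1 and 11.4 CPM in 8025 PBS libraries. No C26 CX library overlapped its controls, nor did any 8025 CX library, in the opposite direction.

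The receptors were Csf3r, Csf1r, Il4ra, Il10ra, Il2rg, Csf2rb, Ifngr1, Csf2ra and Ifngr2. Csf2rb, the shared chain of the receptors for GM-CSF, interleukin-3 and interleukin-5, rose in both models, by 1.70 in C26 and 3.01 in 8025 (difference −1.31 ± 0.33, adjusted p = 0.013). Il4ra, the interleukin-4 receptor chain, also rose in both, by 1.12 and 2.08 (difference −0.95 ± 0.20, adjusted p = 0.004). Il10ra, the receptor for the anti-inflammatory interleukin-10, rose in 8025 alone (difference −1.36 ± 0.31, adjusted p = 0.0058).

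Pattern receptors and inflammasome genes were lower in 5 of 36 (Clec4n, Nod2, Card9, Tlr8 and Nlrp1b), beside 4.6% of all genes. None was higher and the median was −0.81. Here the count was 3 without 8025 CX replicate 3, 8 without 8025 CX replicate 1 and 9 without C26 CX replicate 1. Nlrp1b lost its call without any of 9 single libraries (adjusted p up to 0.091) and Tlr8 without 8025 CX replicate 3 (0.058). Nod2, a sensor of bacterial cell wall peptides, had 2.81, 2.31, 1.597 and 1.01 CPM in C26 CX libraries, 2.57, 1.87, 2.58 and 2.52 CPM in C26 PBS libraries, 3.70, 4.87, 4.44 and 5.13 CPM in 8025 CX libraries and 1.11, 1.25, 1.99 and 1.77 CPM in 8025 PBS libraries. The difference was −1.83 ± 0.41 (adjusted p = 0.0057), and only the 8025 groups were apart. Clec4n, the fungal receptor dectin-2, rose by 0.74 in C26 (adjusted p = 0.031; lost without any of 4 single libraries, up to 0.13) and by 2.43 in 8025 (difference −1.69 ± 0.36, adjusted p = 0.004).

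MHC class II presentation had 5 of 19 genes lower in C26, beside 4.6% of all genes, with none higher and a median of −0.84. The 5 were Ctss, Ifi30, Lgmn, Cd80 and Cd86. These encode costimulatory ligands and lysosomal enzymes that process antigen or the invariant chain, not the class II chains themselves. The count was 2 without 8025 CX replicate 3, 8 without C26 CX replicate 1 and 3 without both control replicates 1. Cd86 lost its call without any of 8 single libraries (adjusted p up to 0.11), and Cd80 and Lgmn without 8025 CX replicate 3 (0.052 and 0.051). Ctss, the protease cathepsin S, had 28.4, 17.6, 20.5 and 20.1 CPM in C26 CX libraries, 13.5, 12.6, 12.9 and 14.1 CPM in C26 PBS libraries, 24.1, 33.6, 44.0 and 34.8 CPM in 8025 CX libraries and 9.15, 8.81, 8.47 and 10.6 CPM in 8025 PBS libraries. It rose in both models without overlap, by 0.71 in C26 and 1.88 in 8025, and the difference was −1.18 ± 0.23 (adjusted p = 0.0021).

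Dendritic cell genes went both ways, with 4 of 14 lower (Fscn1, Wdfy4, Irf4 and Naaa) and Clec9a higher in C26. Over all genes tested 4.6% were lower and 1.97% higher. Naaa lost its call without any of 11 single libraries (adjusted p up to 0.11) and Irf4 without C26 PBS replicate 1 (0.053). Fscn1, an actin bundling protein of mature dendritic cells, had 0.676, 0.379, 0.532 and 0.233 CPM in C26 CX libraries, 1.20, 2.29, 2.19 and 1.88 CPM in C26 PBS libraries, 1.85, 1.12, 1.45 and 1.89 CPM in 8025 CX libraries and 1.57, 2.03, 1.28 and 1.77 CPM in 8025 PBS libraries. It fell in C26 without overlap, by 2.01 on the log2 scale, and did not change beyond the spread in 8025, a difference of −1.93 ± 0.41 (adjusted p = 0.004). Wdfy4, needed for cross-presentation by dendritic cells, rose in 8025 alone (difference −0.94 ± 0.23, adjusted p = 0.012). Clec9a, a receptor of conventional dendritic cells for dead cells, rose in both models and more in C26, by 1.65 against 0.61, and its difference of 1.04 ± 0.31 (adjusted p = 0.036) was lost when any of 8 libraries was left out (adjusted p up to 0.093). The 8025 rise of Clec9a was lost without 8025 CX replicate 3 (0.08) or 8025 PBS replicate 2 (0.096).

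Of 32 interferon-induced antiviral genes, 10 fell and 2 rose in C26 cachexia, where 10.3% of all genes fell. In 8025 cachexia 2 fell and 7 rose, a share near the 18.7% of all genes that rose. Of the 32, 5 were lower in the difference (Oasl2, Oas2, Oas1a, Oas1g and Ifi27l2a), beside 4.6% of all genes. None was higher, and the median was −0.66. Ifi27l2a lost its call without any of 9 single libraries (adjusted p up to 0.12) and Oas1g without any of 5 (up to 0.074). C26 CX replicate 1 was high for this list, with a summed 686 CPM against 462 to 499 in the other 3 libraries of its group. Without it 8 genes were lower in the difference and 17 fell in C26. Without C26 CX replicate 2 these counts were 3 and 4, and without C26 PBS replicate 2 they were 3 and 5. The count in the difference was also 3 without C26 CX replicate 3, 8025 CX replicate 3 or 8025 PBS replicate 1, the falls in C26 were 6 without C26 CX replicate 4, and the rises in 8025 were 4 without 8025 PBS replicate 1.

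Oasl2 and Oas2 belong to the oligoadenylate synthetase family, whose members sense double-stranded RNA. Oasl2 had 6.97, 2.995, 2.78 and 4.04 CPM in C26 CX libraries, 6.35, 10.6, 6.48 and 8.33 CPM in C26 PBS libraries, 7.34, 8.80, 11.1 and 9.42 CPM in 8025 CX libraries and 4.64, 5.62, 5.83 and 5.85 CPM in 8025 PBS libraries. The 8025 groups did not overlap, and in the C26 cohort replicate 1 of the CX group alone reached the controls. It fell by 0.92 in C26 (adjusted p = 0.0035) and rose by 0.75 in 8025 (adjusted p = 0.0098), and the difference of −1.66 ± 0.32 (adjusted p = 0.0018) was called without any single library. Oas2 rose by 1.44 in 8025 and had a C26 change of −0.22 (adjusted p = 0.57), a difference of −1.66 ± 0.35 (adjusted p = 0.0036).

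Genes of the interferon gamma response had 2 of 22 lower (Cd274 and Gbp8) and Tgtp1 higher in C26. Over all genes tested 4.6% were lower and 1.97% higher, and all 3 calls of this list depended on single libraries. Tgtp1, an inducible GTPase with a near-identical copy Tgtp2, had 2.65, 2.05, 1.36 and 5.21 CPM in C26 CX libraries, 0.456, 0.693, 0.974 and 0.411 CPM in C26 PBS libraries, 1.40, 0.749, 2.001 and 1.21 CPM in 8025 CX libraries and 0.653, 0.858, 1.21 and 6.16 CPM in 8025 PBS libraries. The value of 6.16 CPM stood apart from its group, and without that library the difference was 1.52 (adjusted p = 0.14) in place of 2.83 ± 0.73 (adjusted p = 0.017). Cd274, the ligand PD-L1, differed by −1.59 ± 0.44 (adjusted p = 0.025) and was also high in 8025 PBS replicate 4, at 10.43 CPM against 4.52 to 5.12 in the other 3. Cd274 lost its call without any of 5 single libraries (adjusted p up to 0.092) or both control replicates 1 (0.079), Gbp8 without any of 8 (up to 0.082), and Tgtp1 also without C26 CX replicate 4 (0.055).

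MHC class I presentation had 1 call among 24 genes, near the share over all genes, of which 4.6% were lower and 1.97% higher. That call was Nlrc5, the transactivator of class I genes, which was higher in C26. It had 132, 108, 113 and 94.7 CPM in C26 CX libraries, 47.2, 61.6, 43.3 and 61.7 CPM in C26 PBS libraries, 180, 144, 174 and 185 CPM in 8025 CX libraries and 127, 136, 118 and 161 CPM in 8025 PBS libraries. It rose by 1.07 in C26 (adjusted p = 1.4e-05), and its difference of 0.73 ± 0.23 (adjusted p = 0.047) was lost when any of 11 libraries was left out singly (adjusted p up to 0.11), and without both control replicates 1 (0.12). The list's median difference was −0.06.

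NF-kB targets had no called difference among 19 genes with edgeR or DESeq2 (2 at an unadjusted p under 0.05), with a median of −0.43. Of the 19, 12 rose in 8025 and 5 in C26 cachexia, beside 18.7% and 11.8% of all genes. Relb and Nfkb2, subunits of the noncanonical pathway, were lowest in p on this list. Relb had 4.42, 3.37, 2.78 and 2.72 CPM in C26 CX libraries, 3.40, 4.21, 2.53 and 3.52 CPM in C26 PBS libraries, 8.68, 10.7, 26.3 and 9.72 CPM in 8025 CX libraries and 6.60, 5.69, 8.61 and 6.46 CPM in 8025 PBS libraries, a difference of −1.06 ± 0.41 (adjusted p = 0.12). Its 8025 rise of 1.03 was lost without 8025 CX replicate 3 (0.52, adjusted p = 0.11). Nfkb2 differed by −1.11 ± 0.44 (adjusted p = 0.13).

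Lymphocyte genes gave no called difference in edgeR. Among 23 T and NK cell genes 1 had an unadjusted p under 0.05, DESeq2 called 1 (Cd28), the median was −0.13, and 9 further genes of that list, Cd3d, Cd8a and Gzmb among them, did not pass the filter. Cd3e, a chain of the T cell receptor complex, had 0.676, 0.493, 0.473 and 0.855 CPM in C26 CX libraries, 0.664, 0.533, 0.292 and 0.411 CPM in C26 PBS libraries, 0.448, 0.437, 0.667 and 0.8292 CPM in 8025 CX libraries and 0.523, 0.390, 0.569 and 1.34 CPM in 8025 PBS libraries. At 39 to 49 counts a group, its difference of 0.62 ± 0.60 (adjusted p = 0.61) was not detectable at this depth. Cd28, a costimulatory receptor of T cells, rose in 8025 by 2.34, and its difference of −1.72 ± 0.57 was not called (adjusted p = 0.064), although it was without 8025 CX replicate 2 (0.031), 8025 CX replicate 4 (0.038) or C26 CX replicate 4 (0.047). Themis, a signalling protein of developing T cells, differed by −1.40 ± 0.71 (adjusted p = 0.26), and by −2.43 (adjusted p = 0.039) without both control replicates 1.

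Among 20 B and plasma cell genes the median difference was 0.48, with 2 at an unadjusted p under 0.05 and none called by DESeq2. In 8025 cachexia 9 fell and 1 rose, where 17.9% of all genes fell and 18.7% rose. In C26 cachexia 1 fell and 1 rose, where 10.3% of all genes fell and 11.8% rose. The 9 were 5 without 8025 CX replicate 1, 8025 PBS replicate 3 or 8025 PBS replicate 4. Ebf1, a transcription factor of the B lineage that other cells also use, had 20.2, 12.6, 21.3 and 11.8 CPM in C26 CX libraries, 17.1, 19.7, 12.7 and 14.7 CPM in C26 PBS libraries, 33.1, 25.2, 33.2 and 21.5 CPM in 8025 CX libraries and 49.7, 37.8, 65.0 and 62.7 CPM in 8025 PBS libraries. It fell in 8025 by 0.93 (adjusted p = 0.0038), and the difference of 0.97 ± 0.35 was not called (adjusted p = 0.095). Bach2 differed by 1.07 ± 0.41 (adjusted p = 0.12).

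Of the mast cell, basophil and eosinophil list, 3 of 12 genes passed the filter and none was called by edgeR or DESeq2 (1 at an unadjusted p under 0.05). Ccr3, the eotaxin receptor, was higher in each library of the C26 cohort than in any of the 8025 cohort. It had 8.99, 5.08, 5.97 and 3.73 CPM in C26 CX libraries, 6.80, 4.32, 4.29 and 3.87 CPM in C26 PBS libraries, at most 0.336 CPM in 8025 CX libraries and at most 0.131 CPM in 8025 PBS libraries. The 8025 CX group held 22 counts of it and the 8025 PBS group 2. Its 8025 rise was called (adjusted p = 0.015; 0.051 without 8025 PBS replicate 4) and its C26 change of 0.30 was not (adjusted p = 0.54). The difference of Ccr3 was below 0 and not called (adjusted p = 0.12), but was called (0.046) without 8025 PBS replicate 1, which held both counts of its group. Il5ra, a receptor chain of eosinophils, was within 0.0754 and 0.84 CPM in all 16 libraries, and its difference was 0.60 ± 0.71 (adjusted p = 0.69).

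Genes of other liver cells were measured beside these, and their part in the immune results was not tested. Acute phase genes rose in 25 of 27 in each model, beside 11.8% of all genes in C26 and 18.7% in 8025. Their median log2 changes were 3.33 in C26 and 3.06 in 8025. A2m was the single called difference of the 27 (−4.36, adjusted p = 0.0092), near the 4.6% of all genes that were lower. The call of A2m was lost without C26 PBS replicate 1 (−3.38, adjusted p = 0.054), and its difference was −5.15 without 8025 PBS replicate 1. Complement genes were lower in 2 of 30, the receptors C3ar1 and C5ar1 of myeloid cells, beside 4.6% of all genes. C3ar1 lost its call without 8025 CX replicate 3 (adjusted p = 0.059) or C26 CX replicate 4 (0.05), and C5ar1 without C26 PBS replicate 1 (0.053) or both control replicates 1 (0.11); its difference of −1.83 was −2.47 without 8025 PBS replicate 3. On this list C7 was higher, whose difference was 1.29 ± 0.32 (adjusted p = 0.012). C7 had 61.4, 65.0, 95.8 and 65.3 CPM in C26 CX libraries, 15.7, 11.04, 13.2 and 14.9 CPM in C26 PBS libraries, 35.3, 29.6, 20.7 and 23.6 CPM in 8025 CX libraries and 14.9, 11.4, 13.4 and 11.1 CPM in 8025 PBS libraries. It rose in both models without overlap, and more in C26. Of 15 hepatocyte genes, F9 and Cyp2f2 were higher in C26, beside 1.97% of all genes. Cyp2f2 lost its call without any of 6 single libraries (adjusted p up to 0.061).

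Cell cycle genes were lower in C26 in 7 of 28 tested, beside 4.6% of all genes, none was higher, and the median was −1.29. In C26 cachexia 9 fell and none rose, where 10.3% of all genes fell. In 8025 cachexia 9 rose and none fell, where 18.7% of all genes rose. Mki67, the proliferation marker Ki-67, had 1.77, 0.758, 1.30 and 1.244 CPM in C26 CX libraries, 4.36, 5.33, 3.85 and 5.16 CPM in C26 PBS libraries, 10.25, 15.4, 29.9 and 7.54 CPM in 8025 CX libraries and 6.80, 4.602, 5.41 and 7.07 CPM in 8025 PBS libraries. The groups did not overlap within either cohort and went opposite ways, with a difference of −3.31 ± 0.54 (adjusted p = 0.00031). Top2a, the topoisomerase of dividing cells, fell by 1.90 in C26 and rose by 1.38 in 8025 (difference −3.28 ± 0.56, adjusted p = 0.00057). The count of 8025 rises was 4 without 8025 CX replicate 3 and 5 without 8025 PBS replicate 2.

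Cholangiocyte genes were lower in 6 of 12 (Krt7, Krt19, Muc1, Cftr, Prom1 and Spp1), and 9 of the 12 rose in 8025 against 1 in C26. Of all genes 4.6% were lower, and 18.7% rose in 8025 against 11.8% in C26. The count of 6 was 3 without 8025 CX replicate 3, 8025 PBS replicate 3 or 4, C26 CX replicate 2 or 4, or C26 PBS replicate 3 or 4. 8025 CX replicate 3 was high for this list, at a summed 773 CPM against 333 to 367 in the other 3 libraries of its group, and 8025 PBS replicate 1 at 492 against 322 to 333. Of the 6, Spp1 lost its call without any of 11 single libraries (adjusted p up to 0.23), Cftr without any of 10 (up to 0.16), Prom1 without any of 9 (up to 0.11) and Muc1 without C26 PBS replicate 4 (0.055). Krt7, a keratin of bile duct cells, differed by −3.45 ± 0.53 (adjusted p = 0.00018) and kept its call without any single library.

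Of 19 stellate cell and fibroblast genes, 3 were lower in C26, beside 4.6% of all genes. They were the fibrillar collagens Col1a1, Col1a2 and Col3a1 and were called in each fit that left out 1 library. Col3a1 had 39.9, 29.0, 47.0 and 20.3 CPM in C26 CX libraries, 66.4, 62.7, 74.5 and 87.5 CPM in C26 PBS libraries, 71.9, 28.9, 132 and 19.0 CPM in 8025 CX libraries and 33.3, 25.3, 26.5 and 33.4 CPM in 8025 PBS libraries. In the C26 cohort the groups were apart, with a fall of 1.09 (adjusted p = 0.029), whereas the 8025 CX libraries spread from below to above their controls. Its difference was −2.19 ± 0.52 (adjusted p = 0.0086), and −1.53 (adjusted p = 0.045) without 8025 CX replicate 3. The C26 fall of Col3a1 was lost without any of 4 single libraries (adjusted p = 0.052 to 0.11). The difference of Col1a1 was −3.29, and −2.57 without 8025 CX replicate 3. Of 24 endothelial genes, Pecam1 and Cdh5 were lower and F8 higher in C26, 2 of 24 lower beside 4.6% of all genes. F8 lost its call without any of 9 single libraries (adjusted p up to 0.12). Immediate early and heat shock genes were lower in 5 of 12, beside 4.6% of all genes. In C26 cachexia 5 of the 12 fell and 1 rose, and in 8025 cachexia 1 fell and 4 rose. Their summed CPM was 286 to 699 in C26 PBS libraries and 94.8 to 189 in C26 CX libraries. In the 8025 cohort it was 129.5 to 182 in CX and 126 to 238 in PBS libraries. The count of lower genes was 2 without 8025 CX replicate 3, in which Jun, Fos and Atf3 were highest. It was 3 without 8025 PBS replicate 1, C26 CX replicate 1 or 2, or C26 PBS replicate 1.

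The genes with the lowest and highest called differences at a mean of at least 1 CPM were few in immune function. The 6 lowest were Klhl1, Hspa1b, Raet1a, Kntc1, Apol10b and Hmga2, with log2 differences between −5.90 and −4.80. Hmga2, a chromatin protein of fetal liver and of growing cells, had 3.28, 2.81, 2.31 and 2.10 CPM in C26 CX libraries, 4.32, 3.63, 4.33 and 3.11 CPM in C26 PBS libraries, 93.7, 16.9, 55.8 and 7.69 CPM in 8025 CX libraries and 3.40, 2.65, 1.07 and 2.01 CPM in 8025 PBS libraries. All 8025 CX libraries were above all others but spread widely, and the difference was −4.80 ± 0.68 (adjusted p = 7e-05), or −4.10 without 8025 CX replicate 1. Klhl1, a gene known from neurons, had 0.528 to 10.0 CPM in 8025 CX libraries and at most 0.480 CPM in the other 12 libraries; its difference of −5.90 was −4.98 without 8025 CX replicate 1 and −5.2 without C26 PBS replicate 2. Hspa1b, the inducible heat shock protein 70, was 1.01 to 20.6 CPM in C26 PBS libraries, at most 0.233 CPM in C26 CX libraries and at most 1.01 CPM in the 8025 cohort, and its difference of −5.54 was −4.56 without C26 PBS replicate 3, −6.26 without C26 CX replicate 4 and not called without 8025 CX replicate 3 (adjusted p = 0.07).

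Raet1a encodes a ligand of the NK cell receptor NKG2D and has near-identical neighbours. It had 1 count over the C26 CX group and 18 over the C26 PBS group, all 18 in replicate 2, so that its difference reversed to 0.17 (adjusted p = 0.74) without that library. In 8025 libraries it had 4.87, 3.68, 4.32 and 4.45 CPM in the CX group against 2.55, 1.33, 0.854 and 1.34 CPM in the PBS group. Kntc1, a spindle checkpoint gene, had 4 counts over the C26 CX group and 83 over the C26 PBS group, and its difference of −5.04 was −4.41 without 8025 CX replicate 3 and −5.72 without C26 CX replicate 4. Apol10b lost its call when any of 11 libraries was left out singly (adjusted p up to 0.15) and without both control replicates 1 (0.14), and its difference of −4.84 was −6.08 without C26 CX replicate 1.

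The 6 highest were Cyp4a12a, Adgrf1, Rgs16, Cyp4a12b, Pak7 and Ces3b, with log2 differences between 3.74 and 5.64. Cyp4a12a, a fatty acid hydroxylase of male mouse liver and kidney that shares long stretches with Cyp4a12b, had 129, 48.4, 27.5 and 19.7 CPM in C26 CX libraries, 79.5, 133, 146 and 131 CPM in C26 PBS libraries, 0.168, 0.312, 1.57 and 0.678 CPM in 8025 CX libraries and 150, 88.0, 79.4 and 24.4 CPM in 8025 PBS libraries. It fell by 6.76 in 8025 (adjusted p = 3.6e-09) and had a C26 change of −1.12 (adjusted p = 0.097), a difference of 5.64 ± 0.80 (adjusted p = 7e-05). Without C26 CX replicate 1 the C26 change of Cyp4a12a was a called fall (−1.91, adjusted p = 0.0055) and the difference 4.82. The difference was 6.72 without 8025 CX replicate 3 and 5.01 without both control replicates 1. For Cyp4a12b, the difference of 3.95 became 3.29, 5.21 and 3.26 in the same 3 fits, all called. Adgrf1, an adhesion receptor, rose by 3.23 in C26 and fell by 2.14 in 8025, a difference of 5.37 ± 1.08 (adjusted p = 0.0024); the 8025 fall of Adgrf1 was lost without 8025 CX replicate 3 (0.06), 8025 CX replicate 4 (0.052) or 8025 PBS replicate 3 (0.081). Rgs16, a regulator of G protein signals, fell by 2.89 in 8025 (adjusted p = 0.0034), a difference of 4.20 ± 1.03 (adjusted p = 0.011). Ces3b, a liver carboxylesterase with close relatives, lost its call without any of 7 single libraries (adjusted p up to 0.082) or both control replicates 1 (0.076).

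The bead-bound hepatocyte nuclei of the same animals were fitted in the same way. There, 75 of 13274 genes were lower, 0.565%, and 52 higher, 0.392%, in the difference of effects. Of the 87 immune genes lower in whole liver nuclei, 81 could be tested in hepatocyte nuclei, 80 of these had a difference below 0, and 6 were called: Vcan, Ccr2, Runx1, Marco, Il4ra and Sirpa. Over these 81 genes the median difference was −1.0 in hepatocyte nuclei, against −1.43 with all nuclei of the liver. As the 81 were called in whole liver nuclei of the same animals, these values are descriptions. Over all immune list genes tested the medians were −0.45 for 330 genes in hepatocyte nuclei and −0.66 for 390 genes in whole liver nuclei. Vcan, for example, differed by −3.55 ± 0.69 (adjusted p = 0.0087) in hepatocyte nuclei and Runx1 by −2.09 ± 0.39 (adjusted p = 0.0075), while Spi1 differed by −0.46 ± 0.46 (adjusted p = 0.72).

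Whether the difference itself differed between fractions was tested over both kinds of library. No gene of 14054 was called in either direction, 0%, with 131 at an unadjusted p under 0.05. That is fewer than chance alone would give. The fit took the 2 libraries of an animal as independent, so it could miss differences and its lack of calls decides little. With the animal as a block, 1 gene was higher and 2 lower. The fractions share animals, and these fits do not show whether the immune pattern is particular to whole liver nuclei.

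The series also holds weight-stable tumours with their own PBS controls, NC26 in place of C26 and MC38 in place of 8025, whose difference of effects was formed in the same way in whole liver nuclei. No gene was called in it, 0% in either direction, with 680 at an unadjusted p under 0.05, and with DESeq2 2 were higher and 2 lower. The weight-stable effects themselves were few. With NC26 97 genes rose and 3 fell of 13738 tested, and with MC38 0 were called. A lack of calls in a difference of such effects says little about how the tumour models compare. Of the 87 immune genes, 33 were below 0 in the weight-stable difference, with a median of 0.07 against −1.47 in the cachexia difference. As the 87 were called from the cachexia difference, that −1.47 is a description set by the choice. Over all 390 immune genes tested the medians were 0.08 and −0.66. The cachexia difference minus the weight-stable difference was called lower in 84 genes, 0.611%, and higher in 4, 0.0291%. Of the 390 immune genes, 17 were lower and none higher: Cd300lf, Csf1r, Csf3r, Fcgr3, Il1b, Itgal, Itgam, Lgmn, Lyz2, Marco, Nod2, Pirb, Runx1, Siglec1, Sirpa, Thbs1 and Vcan. Itgam differed by −2.65 (adjusted p = 0.0083), Vcan by −3.54 (adjusted p = 0.022) and Csf1r by −1.46 (adjusted p = 0.028) on the log2 scale.

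**Figure D5:**
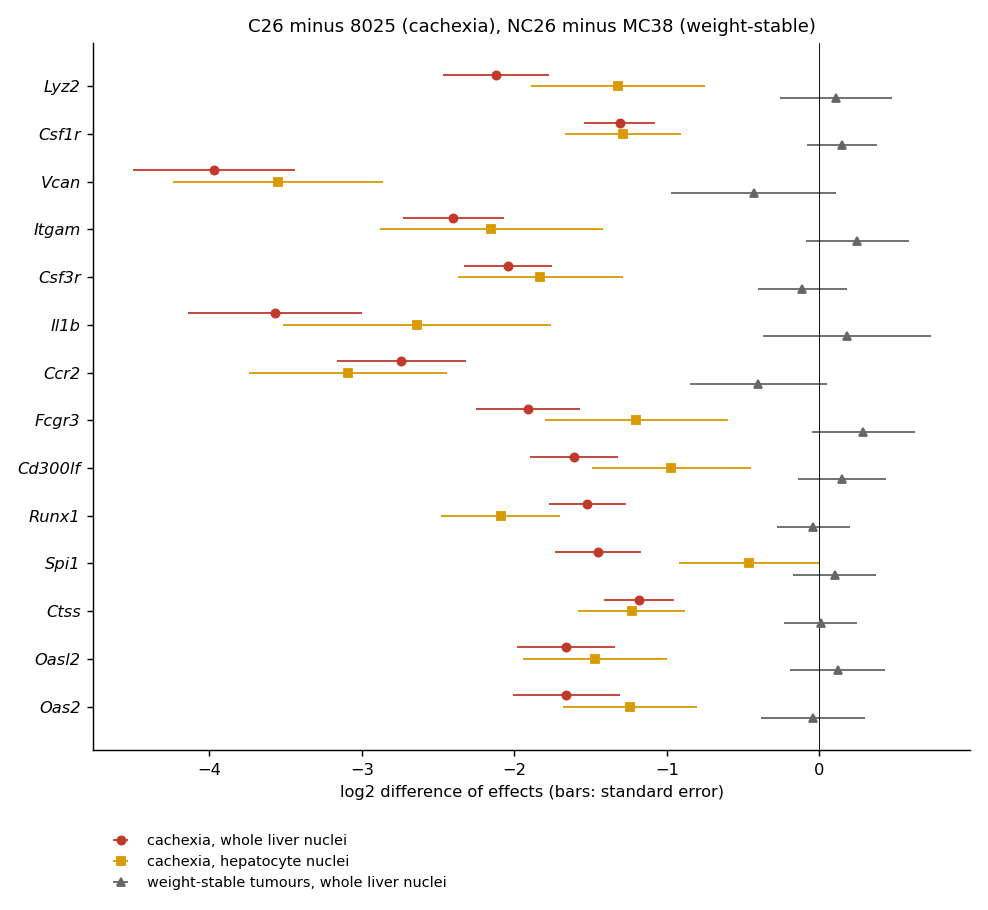
Log2 difference of effects with its standard error (x axis) for 14 immune genes (rows), as C26 minus 8025 cachexia in whole liver nuclei (red circles), the same in hepatocyte nuclei (yellow squares) and NC26 minus MC38 weight-stable tumours in whole liver nuclei (grey triangles). The red circles lie between −3.97 and −1.18, the yellow squares are also below 0, and the grey triangles lie between −0.43 and 0.29. The 14 genes were taken from those called lower in the cachexia difference, so the place of the red circles is set by that choice. The squares come from the same animals, and among them only Vcan, Ccr2 and Runx1 were called.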

How the data were processed

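Total RNA of whole liver nuclei was sequenced from 16 animals in 4 groups with a stranded kit, per the labels' protocols. The deposited table holds raw counts per gene for all 72 libraries. The submitters' processing notes name STAR 2.4.2a, DESeq2 1.24.0 and mm10, without their roles. The gene lengths deposited with the counts equal the whole transcript span for 19159 of 20105 genes. Whether the authors' counting used strand is not given in the sources used here, so overlapping and antisense genes and near-identical copies are uncertain.

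The counts were fitted with edgeR 4.0.16 (quasi-likelihood F-test, limma 3.58.1, R 4.3.3) over all 36 whole liver libraries in 9 groups, which share 1 estimate of the spread, after filterByExpr and TMM scaling. Calls were made at p under 0.05 after Benjamini-Hochberg adjustment over all genes tested. Differences are log2 ± SE. Hepatocyte nuclei were fitted in the same way, and both kinds of library together for the test between them. The fit was also run on simulated counts with changes set in C26 CX libraries alone and no outlying libraries. That setting differs from these data, so the run does not bear on single calls. Alternatives were other scalings and filters, the 16 libraries alone, a replicate block, DESeq2 1.42.0 and each library left out.

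Genes named by rule were the 6 highest and 6 lowest called differences at a mean of at least 1 CPM, the 2 lowest p-values of each immune list at a mean of at least 0.2 CPM, and a set of followed genes. Other members were named because they passed the test or after their values were seen. The members and lists were chosen with earlier results of these data known. Floors cover counting error only. Values of some list genes are not reported here, although list counts and sums include them.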

Additional observations from a re-analysis of the deposited data

Results flagged for a closer look

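In 31 of 308 groups of 4 libraries 1 library stood apart from the other 3 by Dixon's gap test, which chance alone does in about 5% of groups. In the C26 CX group, Csf1r was high in replicate 1 at 50.4 CPM, Clec4f in replicate 1 at 74.3 CPM, Bach2 in replicate 2 at 214 CPM and Cd28 in replicate 4 at 1.94 CPM, and Raet1a was found in replicate 1 alone, at 0.052 CPM. Replicate 1 was also high in the summed interferon-induced list, at 686 CPM, and in the summed leukocyte adhesion and signalling list, at 1652 CPM.

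In the C26 PBS group, replicate 1 was high in Ccr3 at 6.805 CPM, in Ptprc at 85.6 CPM, in the summed dendritic cell list at 109.8 CPM and in the summed cytokine list at 3901 CPM, and had 0 CPM of S100a8. Replicate 2 was high in Klhl1 at 0.480 CPM, in Raet1a at 0.960 CPM and in the summed T and NK cell list at 70.9 CPM, and low in Nod2 at 1.87 CPM.

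In the 8025 CX group, replicate 3 was high in Relb at 26.3 CPM and in the summed cholangiocyte list at 773 CPM, and low in the summed MHC class I list at 965.5 CPM. Replicate 1 was low in Cd300lf at 30.1 CPM.

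In the 8025 PBS group, replicate 4 was high in Tgtp1 at 6.16 CPM, in Cd274 at 10.43 CPM, in Lyz2 at 3.78 CPM and in the summed chemokine list at 349 CPM, and had 0 CPM of Klhl1. Replicate 1 was low in Csf1r at 18.4 CPM, had 0.131 CPM of Ccr3 against 0 in the others, and was high in the summed cholangiocyte list at 492 CPM and the summed hepatocyte list at 21270 CPM. Replicate 2 was low in Ccr2 at 0.780 CPM and in the summed acute phase list at 1960 CPM.

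Effects that differed between the models by a test of the difference itself were those of 632 genes lower and 270 genes higher in C26, of which 87 and 3 were immune genes. The cachexia difference minus the weight-stable difference was called in 84 genes lower and 4 higher. Among the genes named by rule, it was 4.57 on the log2 scale for Cyp4a12a, −7.06 for Kntc1, −4.93 for Hmga2, −3.75 for Il1b, −3.54 for Vcan and −2.65 for Itgam. It was −2.36 for Nod2, −2.23 for Lyz2, −2.21 for Fcgr3, −1.94 for Csf3r, −1.76 for Cd300lf, −1.48 for Runx1 and −1.46 for Csf1r. These genes were named by their values in the cachexia difference, which is part of this contrast. The sizes listed are therefore partly set by that choice and are descriptions. The causes of these differences were not tested.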

How the results depend on the processing

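No gene called both in the reported fit and under an alternative changed its sign in the difference of effects. With the 16 libraries alone 318 genes were lower in C26, 55 of them immune. With single libraries left out, 386 to 720 genes were lower and 152 to 344 higher in C26, and 61 to 109 immune genes were lower and 1 to 4 higher. Replicate numbers do not pair the animals (same-number correlations −0.131 to 0.11, 1 of 8 above 0.1). A replicate block called 692 genes, 651 of them shared with the reported 902, and left 1 immune gene higher; it left 38 genes lower in hepatocyte nuclei and 30 lower in the cachexia minus weight-stable difference, and with the animal as the block 1 gene was higher and 2 lower between fractions. DESeq2 called 1186 genes in the difference of effects, 900 of them shared, and 126 higher and 229 lower in hepatocyte nuclei, 2 higher and 2 lower in the weight-stable difference, and 26 higher and 202 lower in the cachexia minus weight-stable difference. Without both control replicates 1, a choice made after seeing the data, 689 genes were called and 624 of these were shared. With single libraries left out, the difference of Raet1a ran from −6.80 to 0.17 and its C26 effect from −5.28 to 1.67, both signs turning without C26 PBS replicate 2 (adjusted p = 0.74 and 0.48), which holds all 18 counts of its group. The cause of the other changes was not tested. DESeq2 was not run between fractions. Depth limits genes of few counts, such as S100a8 and Cd3e.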
